A study of Mus musculus with 8 samples.

Results

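A pair of control RNA pools from mouse lung was compared: a pool of uninduced transgenic (TGFb1-Tg) lungs and a pool of wild-type (WT) lungs, both taken from mice on plain drinking water according to the file headers. TGFb1-Tg mice carry an inducible human TGF-β1 transgene. The comparison covers the baseline that the transgenic line shows before doxycycline switches the transgene on. The members are the 8 readings of the pooled control channel (Cy3) out of 16 readings in both channels, 4 on the arrays of TGFb1-Tg mice and 4 on the arrays of WT mice. Of 25734 named genes on the array, 21018 were autosomal by the gene table used. Of these, 10628 had a mean pool intensity of at least 0.3, and 10493 also had at least 3 readings in each pool and were compared. At the edge of the intensity minimum, Olfr1428 lay just inside at 0.3 with a pool difference of -0.86 and Batf lay just outside at 0.2988 with a pool difference of 0.46.

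The study hybridised lung RNA from 4 TGFb1-Tg mice and 4 WT littermates, in Cy5, against pooled controls on 8 Agilent arrays. Per the labels, mice were aged 10 weeks. The titles of the WT samples name B6J, and those of the TGFb1-Tg samples name no strain. The file headers put the 4 TGFb1-Tg lungs on doxycycline for 14 days, the 4 WT lungs on water, and name a pool of 4 water-treated lungs of the matching genotype on each set of arrays. The labels instead name 1 combined WT pool for all arrays, so the sources differ on what the Cy3 channel of the TGFb1-Tg arrays held. The name TGFb1-Tg pool rests on the headers, since no probe used here reads the genotype. The labels give doxycycline at 1 mg/ml and harvests from 2 to 14 days for the study as a whole. The promoter that drives the transgene is not given in the sources used here.

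TGF-β1 is a secreted growth factor that is held latent in the matrix, signals through SMAD transcription factors and is known in lung for driving collagen deposition and myofibroblast formation. Doxycycline-controlled transgenes can be transcribed at a low level without the drug, which is why an uninduced transgenic control is used beside a wild-type one. Immediate early genes, which hold the largest higher difference, encode factors that cells transcribe within minutes of growth factor, mechanical or handling stimuli. B cells, plasma cells and muscle enter whole-lung RNA in amounts that vary from mouse to mouse.

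Each pool was 1 RNA, read 4 times, so the spread of its readings is technical. With 1 pool per genotype the difference has no replicate check and no test, and mouse-to-mouse variation enters it unseen. All readings of a pool also come from 1 set of arrays, so array set and pool cannot be told apart. A pool difference is the mean log2 intensity of the TGFb1-Tg pool minus that of the WT pool, after quantile normalization of the 8 pool columns. A gene is called 2-fold apart when the difference is at least 1 in either direction and the normalized readings of the pools do not overlap. Beside it stands the difference between the 4 TGFb1-Tg and the 4 WT lungs in the Cy5 channel, tested with limma across 25647 genes. That difference shares its spots and arrays with the pool difference, and by the headers shares the WT animals too, so it is no independent measurement. By it 33.8% of genes were called, 20.6% higher and 13.2% lower in the treated lungs.

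The promoters of the genes with the widest separation and close readings in each direction are shown first, because Ccn1 and Cyp1a1 are each known for rapid induction by an outside stimulus. They are the RefSeq sequences of GRCm38.p6, from 250 bases before to 50 bases after the start of the gene, written 5′ to 3′ on the strand of the gene. Ccn1 lies at chr3:145649936-145650235 on the minus strand, and its capitals mark the 1 match to TGACGT, the core of the cAMP response element, searched on both strands. Cyp1a1 lies at chr9:57697363-57697662 on the plus strand, and its capitals mark the 1 match to GCGTG, the core bound by the aryl hydrocarbon receptor, also searched on both strands.
Ccn1: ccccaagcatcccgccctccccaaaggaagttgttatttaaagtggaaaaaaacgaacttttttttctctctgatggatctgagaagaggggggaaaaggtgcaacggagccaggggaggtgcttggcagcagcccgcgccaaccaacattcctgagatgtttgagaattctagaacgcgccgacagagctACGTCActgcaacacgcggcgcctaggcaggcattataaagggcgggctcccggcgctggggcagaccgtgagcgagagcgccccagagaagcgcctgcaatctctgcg
Cyp1a1: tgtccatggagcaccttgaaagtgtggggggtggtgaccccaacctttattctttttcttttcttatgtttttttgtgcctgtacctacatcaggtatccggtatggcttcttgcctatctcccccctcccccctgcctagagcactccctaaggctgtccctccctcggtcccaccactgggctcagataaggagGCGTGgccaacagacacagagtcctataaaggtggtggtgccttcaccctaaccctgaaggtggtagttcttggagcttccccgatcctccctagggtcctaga
TGACGT occurred in 7.51% of the 32851 promoters of the same length in the table, and GCGTG in 32.4%. A match describes the sequence and does not show a bound site.

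The pools were close for most genes. The median pool difference was 0.07 on the log2 scale, the central range from the 25th to the 75th percentile was -0.05 to 0.18, and the 1st and 99th percentiles were -0.56 and 0.52. Of the 10493 genes, 22 (0.21%) were called 2-fold apart, 8 higher in the TGFb1-Tg pool (0.0762%) and 14 lower (0.133%). A further 3 (0.0286%) were 2-fold apart but overlapped. At 1.5-fold, 109 genes (1.04%) were apart, 47 higher (0.448%) and 62 lower (0.591%). Some of these passed through a single probe. The probes of Alg9 lay at -1.16 and -0.06, those of Cdk14 at -0.016 and -1.24, and those of Mex3c at 0.152 and 1.02. Cdk14 counted as lower although its mean intensity as deposited rose from 2.85 to 3.16. Readings did not overlap, at any size of difference, for 35.8% of genes, 28.3% in the higher and 7.49% in the lower direction. These shares are the background for every list. The median pool difference also varied with mean intensity. It was 0.06 for genes at 0.3 to 1, 0.05 at 1 to 3 and 0.08 at 3 to 10. For the 513 genes at 10 or more it was 0.17. The lists were not set against genes of like intensity. The repeat readings had a median SD of 0.08 in the WT pool and of 0.07 in the TGFb1-Tg pool. Their median range was 0.18 in the WT pool and 0.15 in the TGFb1-Tg pool, against 0.24 over the 4 WT lungs. With each column centred on its own median in place of quantile normalization, the median of all genes was 0.40 and the calls split into 22 higher and 2 lower.

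**Figure D1:**
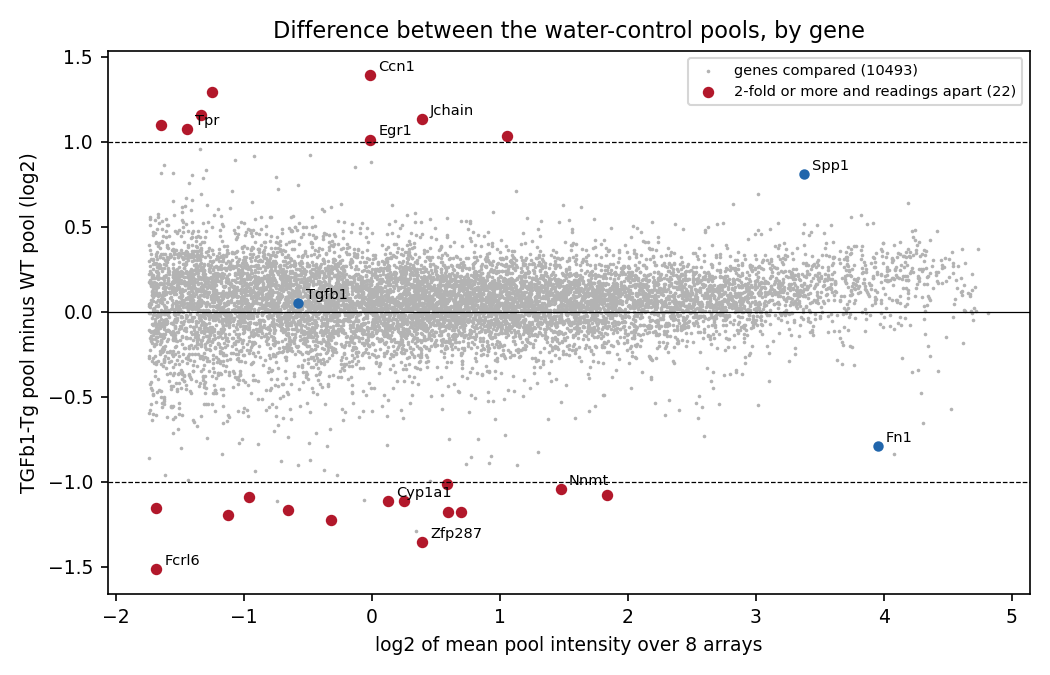
Pool difference (TGFb1-Tg pool minus WT pool, log2) of the 10493 genes compared, against the log2 of their mean pool intensity; red points are the 22 genes called 2-fold apart, blue points mark Tgfb1, Spp1 and Fn1, and dashed lines mark a difference of 1 in either direction. Most genes lie near 0, the called genes lie at low and middle intensities, and Tgfb1 lies in the body of the cloud at 0.05.

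Xist lay outside the autosomal genes compared and differed by more than any of them, by -5.87. Xist, the RNA that coats the inactive X chromosome of females, read 1.1, 1.04, 1.05 and 1.13 in the WT pool and 0.02, 0.01, 0.02 and 0.01 in the TGFb1-Tg pool. In the Cy5 channel it was 4.6 in WT lung 1 and 0.01 to 0.04 in the other 7 lungs. The mean of the 4 WT lungs, 1.18, lay near the WT pool mean of 1.08. The Y-linked histone demethylase Kdm5d averaged 0.582 in the WT pool, 0.573 over the 4 WT lungs and 0.885 in the TGFb1-Tg pool. The pool differences of the Y-linked genes were 0.63 for Ddx3y, 0.52 for Kdm5d, 0.37 for Eif2s3y and 0.71 for Uty, the last at a mean pool intensity of 0.206, under the minimum. A pool with 3 of 4 lungs from males would lie 0.415 below an all-male pool on this scale. Over the genes compared, the WT pool and the mean of the 4 WT lungs differed by a median of 0.0146 on the log2 scale. The Cy3 RNA therefore differed between the array sets, against the labels' single combined pool, and the sex of the pooled mice and their genotype cannot be told apart.

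**Figure D2:**
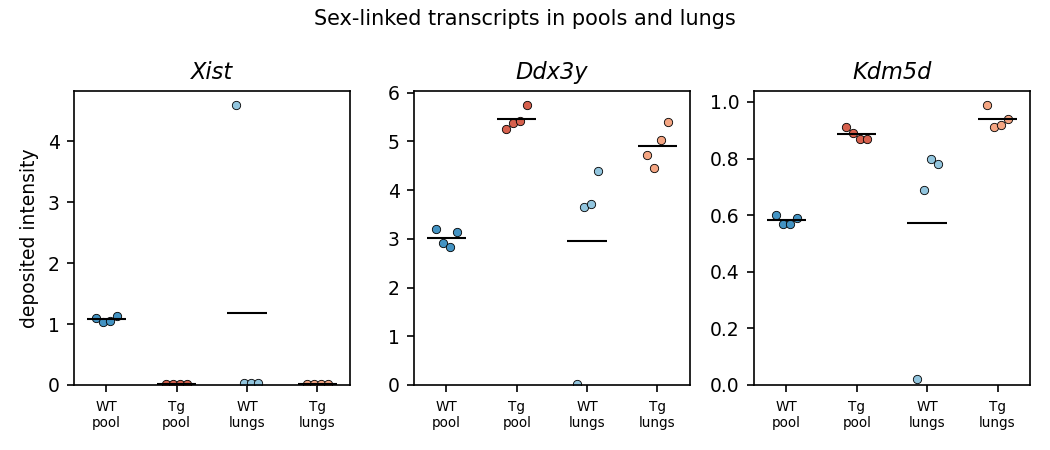
Deposited intensity of Xist, Ddx3y and Kdm5d in the 4 readings of each pool and in the 4 lungs of each group; points are single arrays and bars are means. The WT pool lies between WT lung 1 and the other WT lungs for all 3 genes, and the TGFb1-Tg pool has Xist at 0.02 or less.

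The transgene's own gene did not separate the pools. Tgfb1 read 0.60, 0.66, 0.66 and 0.64 in the WT pool and 0.66, 0.74, 0.69 and 0.71 in the TGFb1-Tg pool. How far its probe reads the human transgene is not given in the sources used here. The normalized readings overlapped and the pool difference was 0.05. In the doxycycline-treated lungs Tgfb1 was 1.05 ± 0.11 (SE) above the WT lungs (n = 4 per group, limma adjusted p = 0.000175). Of the list of TGF-β ligands and direct targets, 26 genes were compared. None was called 2-fold or 1.5-fold apart, 12 were higher and 4 lower without overlap, and the median was 0.13 against 0.07 over all genes. The ligand Tgfb2 read 0.90, 0.84, 0.82 and 0.88 in the WT pool and 1.32, 1.29, 1.41 and 1.32 in the TGFb1-Tg pool, a difference of 0.52. The cell cycle inhibitor Cdkn2b differed by 0.43 and the matricellular protein gene Ccn2 by 0.39. The 4 lower genes were the ligand Tgfb3 (-0.25), the receptor Tgfbr3 (-0.25), Ltbp3 (-0.14) and the cell cycle inhibitor Cdkn1a (-0.13). The 2 probes of Tgfbr3 lay at -0.59 and 0.09. Smad7 (0.20), Skil (0.10), Pmepa1 (0.09) and Tgfbi (-0.005) overlapped.

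Matrix genes went both ways. Of 38 extracellular matrix genes compared, 18 were higher and 3 lower without overlap, with a median of 0.15, and 1 in each direction was past 1.5-fold. Spp1, which encodes the secreted glycoprotein osteopontin, read 7.28, 7.2, 7.09 and 7.68 in the WT pool and 13.8, 13.7, 12.8 and 14.0 in the TGFb1-Tg pool, a difference of 0.81. No reading of one pool came near the other. In single WT lungs Spp1 ran from 3.85 to 11.6, a log2 range of 1.55, wider than the pool difference. Fn1, which encodes fibronectin, went the other way, at 20.5, 18.6, 18.5 and 20 in the WT pool against 11.6, 11.4, 12.4 and 10.6 in the TGFb1-Tg pool, a difference of -0.79. The WT lungs themselves read 16.7 to 21.4 for Fn1 and the doxycycline-treated lungs 18 to 21.9, so the uninduced pool was the low one of all 4 sets. Fn1 readings were at 59.5% to 72.6% of the highest pool intensity on the WT arrays, and how linear the scale is there was not tested.
Among the collagens, Col1a1 did not separate (12.9 to 13.7 against 12.1 to 13.4, difference -0.11). Col1a2 read 12.5 to 15.4 against 17 to 19.1, a difference of 0.41. Elastin, Eln, overlapped at a difference of 0.05, whereas the doxycycline-treated lungs had it 1.86 ± 0.15 (SE, n = 4 per group, limma adjusted p = 5.27e-05) above WT. Col2a1, the cartilage collagen, was among the 15 largest higher differences. It read 0.71, 0.59, 0.58 and 0.62 against 1.1, 1.28, 1.1 and 1.33, a difference of 0.85, and its lung difference was 2.18 ± 0.11 (SE, n = 4 per group, limma adjusted p = 5.99e-06).

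Immediate early genes held the largest separation with close readings. Of 28 compared, 17 were higher without overlap and none was lower, with a median of 0.20, and 2 were called 2-fold apart, both higher. Ccn1, a matricellular protein gene induced by serum and by TGF-β, read 0.64, 0.52, 0.46 and 0.50 in the WT pool and 1.44, 1.46, 1.43 and 1.48 in the TGFb1-Tg pool. The difference was 1.39, with a technical SE of 0.11. The TGFb1-Tg readings were nearly equal and the highest WT reading was less than any of them. Egr1, a zinc finger transcription factor, read 0.60, 0.64, 0.62 and 0.65 against 1.32, 1.39, 1.31 and 1.39, a difference of 1.01 with a technical SE of 0.05. Both genes were also higher in the doxycycline-treated lungs than in the WT lungs, Ccn1 by 1.61 ± 0.19 (SE, limma adjusted p = 0.000383) and Egr1 by 0.91 ± 0.14 (SE, limma adjusted p = 0.00116), with n = 4 per group. The 4 WT lungs spanned 0.93 for Ccn1 and 0.42 for Egr1, less than the pool difference of either gene.
The phosphatase gene Dusp2 differed by 0.59, the apoptosis regulator Ier3 by 0.45, the EGF family ligand Hbegf by 0.40, and the transcription factor genes Egr2 by 0.34 and Klf6 by 0.31, all without overlap. Fos was under the intensity minimum at 0.287 and its readings overlapped, with a difference of 0.27. Ier2 at -0.01, Nr4a2 at -0.02, and Ppp1r15a and Klf4 at 0.00 overlapped. The probes of Nr4a2 disagreed, at 0.306 and -0.354. When and how each lung was taken is not given per sample, and the part of tissue handling in these values was not tested.

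**Figure D3:**
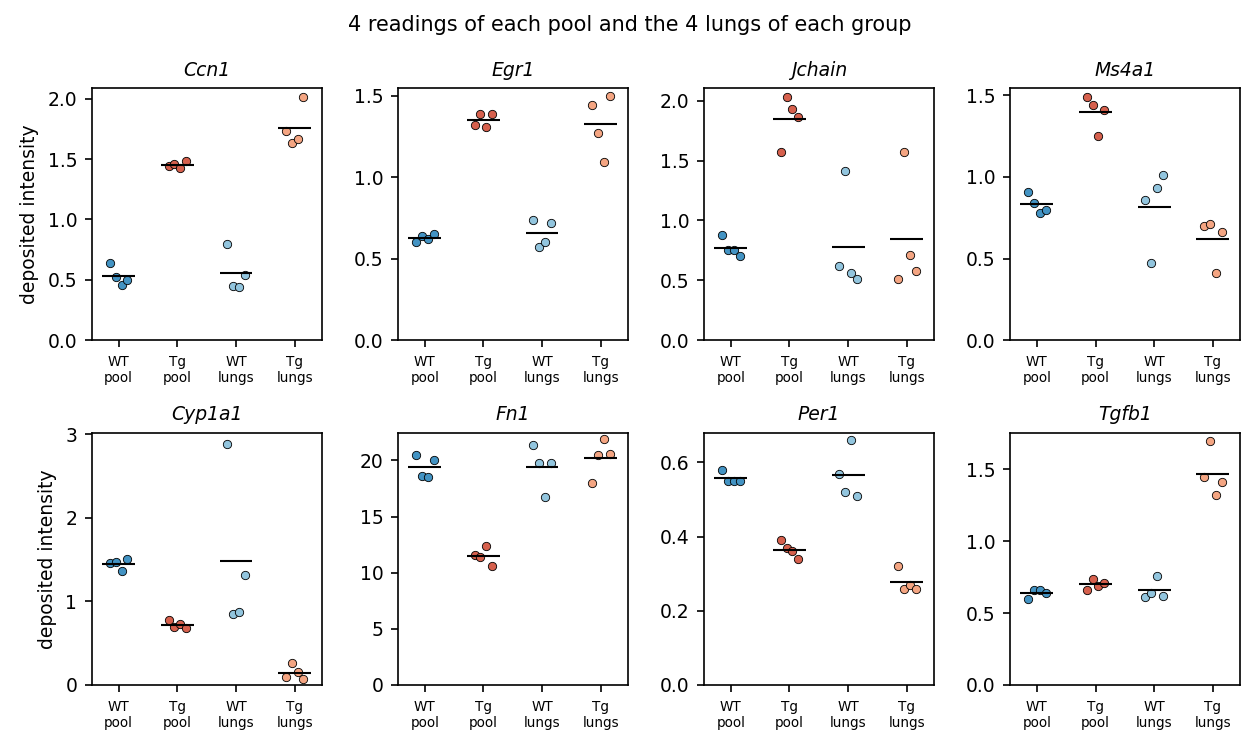
Deposited intensity of 8 genes in the 4 readings of each pool (dark points) and in the 4 single lungs of each group (light points), with bars at the means. Ccn1 and Egr1 are high in both TGFb1-Tg sets, the TGFb1-Tg pool has the highest mean of Jchain and Ms4a1 and the lowest of Fn1, and Tgfb1 is high in the doxycycline-treated lungs alone.

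B lineage transcripts were higher in the TGFb1-Tg pool. The list of B and plasma cell genes had the highest median of the 27 lists, 0.44 over 19 genes compared. Of these, 11 were higher without overlap, none was lower, 3 were past 1.5-fold and 1 was called 2-fold apart. In bulk RNA, more cells of a type and more RNA per cell cannot be told apart. Jchain, the joining chain of secreted IgA and IgM, read 0.88, 0.75, 0.75 and 0.70 in the WT pool and 1.57, 2.03, 1.93 and 1.86 in the TGFb1-Tg pool, a difference of 1.13 with a technical SE of 0.10. The B cell surface protein gene Ms4a1 (CD20) read 0.91, 0.84, 0.78 and 0.80 against 1.49, 1.44, 1.25 and 1.41, a difference of 0.63. Pou2af1, the B cell coactivator of octamer factors, read 0.36 to 0.37 against 0.54 to 0.60, a difference of 0.61. The readings of each of these 3 genes were clear of one another between the pools.
The antigen receptor genes Cd79a and Cd79b differed by 0.52 and 0.44, the receptor Cd22 by 0.52, and the secretory transcription factor Xbp1 by 0.44, without overlap. Pax5, which defines B cells, overlapped at -0.07, and Ighm and Igha, the heavy chain constant genes, overlapped at 0.08 and -0.22. Among the light chain variable segments, Igkv4-86 read 0.31 to 0.36 against 0.59 to 0.65 and differed by 0.89, Igkv4-55 differed by 0.64 and Igkv4-72 by 0.56. The other 3 kappa segments compared overlapped, from -0.59 for Igkv4-57 to 0.13 for Igkv4-91. The segment between these lay at -0.003 as the mean of the log2 values of its 2 probes. Its mean intensity as deposited was lower in the TGFb1-Tg pool, at 0.54 to 0.605 in the WT pool against 0.315 to 0.33. Variable segments share sequence, so a probe may read several of them.
Single mice differed by as much. Jchain was 1.41 in WT lung 2 and 0.51 to 0.62 in the other 3 WT lungs, a log2 range of 1.45, and Ms4a1, Cd79a and Pou2af1 spanned 1.18, 1.25 and 0.91 over the 4 WT lungs. WT lung 2 was the lowest of the 4 for each of those last 3 genes. The doxycycline-treated lungs did not differ from WT beyond the spread between mice for Jchain (0.03 ± 0.42, limma adjusted p = 0.966), Ms4a1 (-0.45, limma adjusted p = 0.237) or Pou2af1 (0.06, limma adjusted p = 0.857), at n = 4 per group.

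Other immune lists lay above the median of all genes by less. The MHC class II list, which encodes antigen presentation by B cells, dendritic cells and macrophages, had a median of 0.30 over 8 genes, with 7 higher and none lower without overlap. The peptide loading gene H2-DMb2 differed by 0.46, H2-Ob, which is expressed in B cells, by 0.45, and H2-Eb2 by 0.40, while the abundant H2-Ab1 overlapped at -0.04. Of 26 T and NK cell genes compared, 16 were higher and 1 lower without overlap, with a median of 0.19. The T cell receptor chain Cd3g differed by 0.52 and the cytotoxic granule protease Gzma by 0.49, but Cd3e overlapped at -0.16. Cd8b1, a chain of the CD8 coreceptor, differed by -1.11 but its readings overlapped (0.59 to 1.11 against 0.22 to 0.65). Interferon-induced genes had a median of 0.15 over 33 genes, with 19 higher and none lower without overlap and none past 1.5-fold. The interferon-induced tetherin gene Bst2 differed by 0.44, and Ifit1 overlapped at 0.11. The NK receptor genes Klra10 and Klra3 differed by 0.73 and 0.54, and these closely related receptors may share probes.

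Myeloid genes split. Among 35 macrophage and monocyte genes, 14 were higher and 4 lower without overlap, with a median of 0.10. The monocyte chemokine receptor Ccr2 read 0.87 to 1.00 in the WT pool and 1.45 to 1.55 in the TGFb1-Tg pool, a difference of 0.57. Marco, the scavenger receptor of alveolar macrophages, read 0.83, 0.85, 0.81 and 0.88 against 0.60, 0.58, 0.61 and 0.58, a difference of -0.59. Its readings were clear of each other, and over the WT lungs Marco spanned 0.59, about as far as the pools lay apart. The neutrophil granule genes Ltf and Lcn2 differed by -0.75 and -0.54, while S100a8 was higher by 0.25. Lcn2 is also made by epithelium.

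Genes of structural cell types differed in both directions by small amounts. The alveolar type 1 list, for the thin gas exchange epithelium, had a median of 0.28 over 13 genes, with 9 higher and none lower without overlap. Akap5, Igfbp2, Pdpn, Rtkn2 and Col4a3 differed by 0.50, 0.49, 0.48, 0.46 and 0.41, whereas the defining gene Hopx lay at 0.00 and overlapped. Hopx was bright, at 21.4 to 28.3 in the WT pool and 24.1 to 26.9 in its 3 TGFb1-Tg readings. On WT array 3 it read 28.3, where the highest pool intensity was 31.1. How linear the scale is there was not tested, so its value of 0.00 may not show equal amounts. The median range of this list over the 4 WT lungs was 0.52, wider than the difference of any of its members.
The alveolar type 2 list, for the surfactant-making epithelium, lay lower, with a median of -0.14 over 13 genes, 1 higher and 4 lower without overlap, but its median was 0.20 with each column centred on its own median. Its distance from the median of all genes was between -0.21 and -0.20 under each of the 4 scalings tried. Lamp3, a protein of the surfactant organelle, read 6.62, 5.41, 5.14 and 5.39 in the WT pool and 4.39, 4.01, 4.05 and 4.08 in the TGFb1-Tg pool, a difference of -0.61. The defining surfactant transporter Abca3 lay at 0.07. Club and secretory cell genes had a median of 0.07, as over all genes, with members from -0.52 to 0.48. Of 23 compared, 5 were higher and 7 lower without overlap. Over all genes 28.3% were higher and 7.49% lower without overlap. The club markers Scgb1a1, Scgb3a2 and Cyp2f2 lacked any WT pool reading and averaged 25.3 to 26.6 in the TGFb1-Tg pool, so these were not compared. The ciliated cell list lay at 0.04, with Foxj1 at -0.06, and Pecam1 of endothelium lay at -0.14 in an endothelial list with a median of 0.19 over 22 genes, 10 higher and 4 lower without overlap.
Smooth muscle and pericyte genes had the most lower members of the structural lists, with 9 of 17 lower and 1 higher without overlap. Their median of -0.13 turned to 0.19 when each column was centred on its own median. Like that of the alveolar type 2 list, its distance from the median of all genes was between -0.21 and -0.20 under each of the 4 scalings tried. Itga8, an integrin chain of contractile interstitial cells, read 1.06, 1.00, 0.99 and 1.00 in the WT pool and 0.71, 0.70, 0.71 and 0.66 in the TGFb1-Tg pool, a difference of -0.64. Smooth muscle myosin, Myh11, read 3.73 to 4.08 against 2.86 to 3.36, a difference of -0.49. Actg2 and Cnn1, both contractile proteins, differed by -0.37 and -0.35, and Acta2 overlapped at -0.11. In the doxycycline-treated lungs Itga8 and Myh11 differed from the WT lungs by -1.34 each (limma adjusted p = 0.00169 and 6.52e-06, n = 4 per group).
Genes of heart and skeletal muscle, which can be carried along with lung, had a median of 0.10 over 28 genes compared, with 8 higher and 2 lower without overlap and 1 past 1.5-fold in each direction. The counts without overlap were near the shares over all genes, 28.3% higher and 7.49% lower. Myh6 averaged 4.25 and 4.80 and Nppa 1.51 and 1.65 in the WT and the TGFb1-Tg pool, with differences of 0.00 and -0.01 after normalization and overlapping readings. Myl2, the ventricular myosin light chain, differed by 0.82 and the slow myosin heavy chain Myh7 by -0.45, both without overlap.

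**Figure D4:**
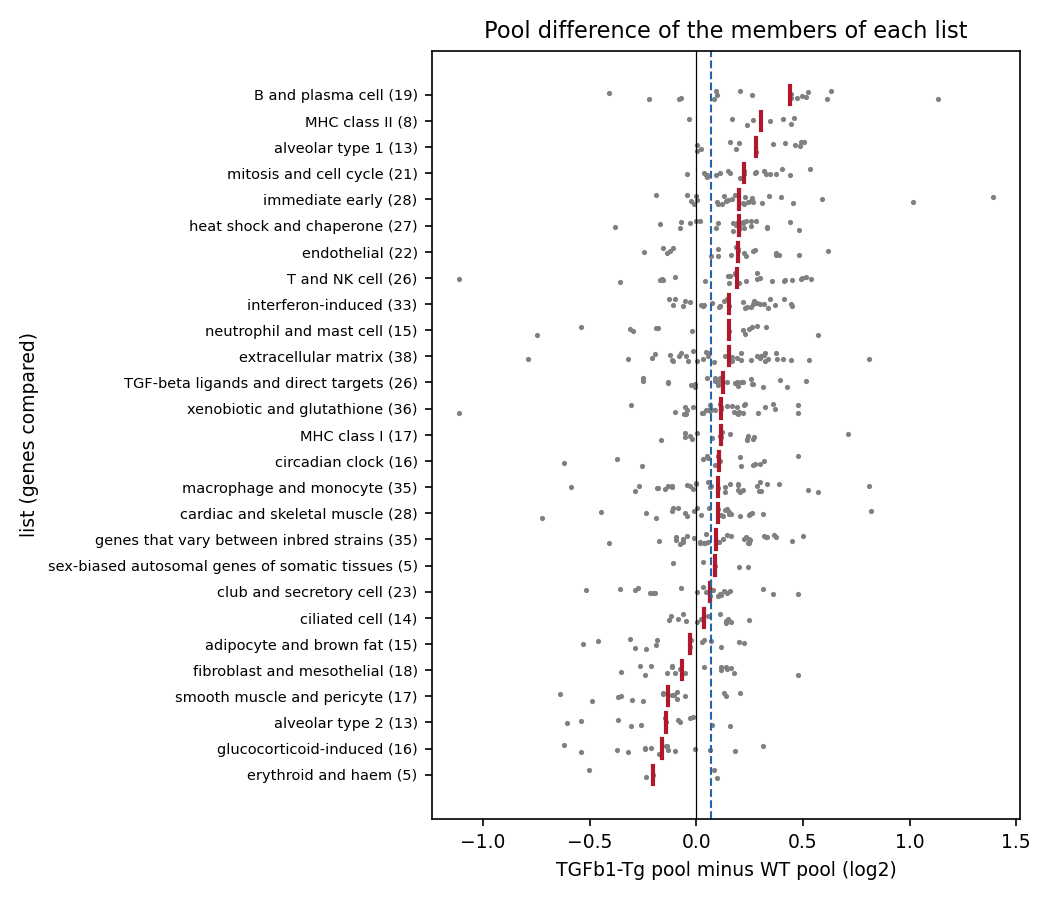
Pool difference (log2) of each compared member of the 27 gene lists, ordered by list median; red bars are list medians, the dashed blue line is the median of all 10493 genes (0.07) and the number of genes is in brackets. B and plasma cell genes lie highest at 0.44 and most list medians lie within 0.2 of the dashed line.

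Cyp1a1, the cytochrome P450 that the aryl hydrocarbon receptor induces, read 1.46, 1.47, 1.36 and 1.51 in the WT pool and 0.78, 0.70, 0.73 and 0.68 in the TGFb1-Tg pool, a difference of -1.11 with a technical SE of 0.04. It was the 1 called gene among 36 xenobiotic and glutathione genes, whose median was 0.12. Single WT lungs read 2.88, 0.85, 0.87 and 1.32 for Cyp1a1, a log2 range of 1.73, which is wider than the pool difference. The doxycycline-treated lungs read 0.07 to 0.26, and differed from the WT lungs by -3.25 ± 0.47 (SE, n = 4 per group, limma adjusted p = 0.00106).
Per1, a clock gene that glucocorticoids also induce, read 0.58, 0.55, 0.55 and 0.55 against 0.39, 0.37, 0.36 and 0.34, a difference of -0.62. No reading of the TGFb1-Tg pool reached the WT pool. The clock output gene Hlf was higher by 0.47 and the core clock gene Arntl by 0.26. Dbp, another clock output gene, differed by 0.32 over its 2 probes and by 0.04 at its brightest probe, and Nr1d1 overlapped at 0.11. Of 16 glucocorticoid-induced genes, 7 were lower and 2 higher without overlap, with a median of -0.16, and Fkbp5, a standard glucocorticoid target, differed by -0.24. That list's median was 0.20 when each column was centred on its own median, and stayed below the median of all genes there. The time of day of each harvest is not given in the sources used here.

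Many of the called genes had readings that differed within a pool almost as much as between the pools. In 13 of the 14 lower and 4 of the 8 higher genes, the readings of a pool spanned at least 50% of the difference. Fcrl6, an Fc receptor-like gene, had the largest difference of all, -1.51, from 0.33, 0.49, 0.71 and 0.35 in the WT pool and 0.14, 0.21, 0.17 and 0.09 in the TGFb1-Tg pool. The same arrays read 0.34, 0.48, 0.69 and 0.36 in the WT lungs, and 0.14, 0.20, 0.17 and 0.09 in the TGFb1-Tg lungs. The lung and the pool on an array thus gave nearly equal values, and both were highest on WT array 3. Zfp287, a zinc finger gene, read 1.28, 1.38, 3.01 and 1.76 in the WT pool, with the highest reading again on WT array 3, and 0.60 to 1.06 in the TGFb1-Tg pool, a difference of -1.35.
After normalization, the highest WT pool reading was on WT array 3 for 13 of the 14 lower genes. Also after normalization, for 13 of the 14 the array with the highest WT pool reading also had the highest WT lung reading, against 60.0% of the 10423 genes read on all WT arrays. Without WT array 3 the calls were 5 higher and 7 lower. Without WT array 4 they were 7 higher and 25 lower. For 12 of the 14 lower and 6 of the 8 higher genes the lung difference lay within 0.2 of the pool difference. Jchain and Cyp1a1 were among the exceptions, at 0.03 and -3.25.
The other lower genes were 4930447C04Rik (-1.22), the leucine-rich repeat gene Lrit2 (-1.19), the centriole gene Cep135 (-1.18), Gm3740 (-1.18), the ribosomal protein gene Rps15a (-1.17), C330022C24Rik (-1.15), the neuropeptide gene Cort (-1.11), the urotensin receptor Uts2r (-1.09), Kbtbd6 (-1.07), the nicotinamide methyltransferase Nnmt (-1.04) and the trace amine receptor Taar5 (-1.01). Over the 14 lower genes the 4 WT readings spanned a median of 0.99 on the log2 scale, and for Cyp1a1 they spanned 0.13. Prss33, at -0.99, lay just outside the 2-fold threshold.
The other higher genes were 1500002F19Rik (1.30), Gm8209 (1.16), Rpl30-ps7 (1.1), the nuclear pore gene Tpr (1.08) and the olfactory receptor Olfr298 (1.04). Rpl26-ps2 (0.96), Gm5670 (0.92), the taste-cell regulator Rgs21 (0.92), Rasl2-9 (0.88) and Zfp85 (0.83) completed the 15 largest. Pseudogenes such as Rpl30-ps7 and Rpl26-ps2 resemble their parent genes, and what their probes read is uncertain. 1500002F19Rik read 0.37, 0.22, 0.20 and 0.24 in the WT pool and 0.59, 0.60, 0.57 and 0.59 in the TGFb1-Tg pool. On the same arrays the lungs read 0.39, 0.22, 0.21 and 0.17 and then 0.63, 0.58, 0.58 and 0.56. WT array 1 was the highest WT array in both channels for this gene.

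**Figure D5:**
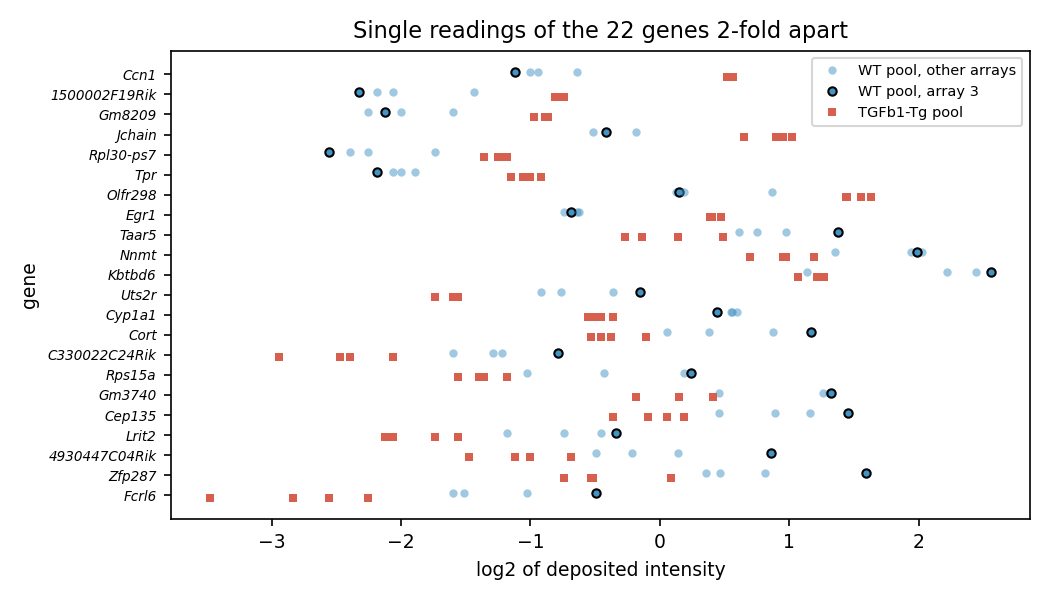
Log2 of the deposited intensity of each of the 22 called genes on the 4 WT arrays (blue circles, array 3 outlined) and the 4 TGFb1-Tg arrays (red squares). Ccn1, Egr1 and Cyp1a1 show close readings on both sides, array 3 is the highest WT reading of most of the lower genes, and the deposited readings of Kbtbd6 overlap although its normalized ones do not.

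When the readings of each pool also had to span at most 50% of the difference, a condition added after the values were seen, 5 of the 22 called genes remained: Ccn1, Jchain, Tpr and Egr1 higher, and Cyp1a1 lower. Of these, Cyp1a1 was not called with each column centred on its median, nor Tpr without WT array 3. Egr1 was not called relative to the median of all genes, without WT array 1 or without TGFb1-Tg array 4. The lung difference of Tpr, 1.15, lay near its pool difference of 1.08. At 1.5-fold the condition on the span left 38 genes, 29 higher and 9 lower. The higher ones included the matrix-associated Ccn4 (0.79), Myl2 (0.82), the neurotrophin Bdnf (0.66), the dendritic cell factor Batf3 (0.62) and the endothelial transcription factor Sox17 (0.62). The probes of Sox17 lay at 0.935 and 0.301, and only the former passed 1.5-fold. The lower ones included Nxpe4 (-0.94), Ltf, Fn1, Itga8, Arhgap20 (-0.62), Per1, Lamp3 and Marco. Myl2 read 0.22 to 0.28 in the WT pool and 0.42 to 0.44 in the TGFb1-Tg pool, while the 4 WT lungs spanned 1.23 on the log2 scale. Ccn4 read 0.28 to 0.33 in the WT pool, 0.47 to 0.54 in the TGFb1-Tg pool and 1.44 to 1.5 in the treated lungs. The TGFb1-Tg pool thus lay between the WT pool and the treated lungs for Ccn4. For Cyp4b1-ps2, by contrast, the pool was high and the treated lungs were low, at 4.93 to 5.62 in the WT pool, 8.44 to 9.60 in the TGFb1-Tg pool and 1.55 to 1.80 in the treated lungs. Genes that vary between inbred strains had a median of 0.09 over 35 genes compared, with 15 higher and 1 lower without overlap. Nnt, the mitochondrial transhydrogenase whose deletion marks some B6J colonies, lay at 0.04 and overlapped, with readings of 2.66 to 2.83 and 3.17 to 3.27 before normalization.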

How the data were processed

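Lung RNA of 4 TGFb1-Tg and 4 WT mice (Cy5) and pooled control RNA (Cy3) were hybridised to 8 two-colour arrays after amplification from 100 ng, per the labels' protocols. The submitters' processing notes name version 8.5.1.1 of Agilent Feature Extraction. The deposited table gave, per probe and array, the intensity of each channel, scaled by the authors in a way not given in the sources used here. It also gave a p-value per array for the difference between the channels, deposited by the authors and not used. A deposited table of log10 ratios equalled log10 of lung over pool within 0.002 for at least 99.99% of probes, with that direction, and was not otherwise used. The genome build is not given in the sources used here.

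Of 39341 probes, 30063 were named and stood for 25734 genes, with symbols updated through the RefSeq table of GRCm38.p6, which also gave the autosomes. Of these genes, 10493 autosomal ones had a mean pool intensity of at least 0.3 and 3 readings per pool. The 8 pool columns were quantile normalized on the log2 scale with limma 3.58.1 in R 4.3.3. A gene was the mean of its probes read on all 8 arrays, or its most-read probe where there was none. The plan had averaged all probes of a gene. That was changed after the values were seen, because averaging whichever probes were read mixed bright and dim probes differently from array to array. The rule used still averages the log2 values of bright and dim probes of a gene. The intensity minimum was applied to the mean of their intensities, so a dim probe can carry a difference. Lungs were compared with limma (lmFit and eBayes, two-sided, Benjamini-Hochberg over 25647 genes, 4 against 4 mice, called at an adjusted p under 0.05). The pools, each 1 RNA, were not tested. The steps were tested on simulated data. In simulated lungs, limma recovered 34% of log2 changes of 0.5 and 57% of changes of 1.0. In simulated pools, 200 of 200 seeded changes of 1.5 came back 2-fold apart. Those pools had a reading SD of 0.05, below the medians of 0.079 (WT) and 0.0679 (TGFb1-Tg) here. The overlap rule was not applied to them, so the simulation does not check the calls. Precision is limited by how few arrays there are, and 39039 to 39281 probes were measured per array.

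The members and the gene lists were chosen with earlier results of these data known. The genes to name were the 15 largest differences without overlap in each direction, up to 4 called members of each list, and a set of reference genes (Tgfb1, Xist, Y-linked, matrix, marker, clock and stress genes). Other genes named, including list members under 2-fold and those with close readings, were chosen after their values were seen. Alternatives were the scaling, the intensity minimum, the fold threshold, the probe rule, leaving out each array and, for the lungs, a replicate block.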

Additional observations from a re-analysis of the deposited data

Results flagged for a closer look

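Of 214 groups of 4 readings or lungs tested, 14 held 1 value far from the other 3 on the normalized log2 scale, and chance alone gives about 1 in 20. Among the sex-linked genes, WT lung 1 stood apart each time. It read 4.6 for Xist against 0.03 to 0.04 in the other WT lungs. For the Y-linked genes it read 0.025 for Ddx3y against 3.65 to 4.39, 0.23 for Eif2s3y against 3.53 to 4.49, 0.02 for Kdm5d against 0.69 to 0.80, and 0.02 for Uty against 0.19 to 0.24.

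In the WT lungs, Jchain was 1.41 in lung 2 against 0.51 to 0.62, and Rasl2-9 was 0.89 in lung 1 against 0.62 to 0.64. In the doxycycline-treated TGFb1-Tg lungs, Ccn1 was 2.01 in lung 4 against 1.63 to 1.73, Rpl30-ps7 was 0.35 in lung 4 against 0.39 to 0.40, Zfp287 was 1.12 in lung 3 against 0.70 to 0.75, and Fn1 was 21.9 in lung 3 against 18 to 20.6. In the WT pool, Olfr298 read 1.82 on WT array 1 against 1.09 to 1.14, Igkv4-86 read 0.31 on WT array 3 against 0.32 to 0.36, and Tgfb1 read 0.60 on WT array 1 against 0.64 to 0.66.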

How the results depend on the processing

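Under the settings tried, the 22 called genes kept their direction, but only 10 of them stayed called with each column centred on its median. With that centring, the lists with medians below 0 (such as smooth muscle, alveolar type 2 and glucocorticoid-induced genes) turned above 0. As reported, 8 genes were called higher and 14 lower in the TGFb1-Tg pool. These counts became 22 and 2 with each column centred on its median, 35 and 61 with no intensity minimum, 2 and 8 with a minimum of 1, and 47 and 62 at 1.5-fold. A minimum of 0.1 gave 17 higher. Averaging every probe read on an array, added after seeing the data, gave 22 lower. Requiring a pool's readings to span at most 50% of the difference, also added, gave 4 higher and 1 lower. Leaving out 1 array gave 5 to 10 higher and 7 to 25 lower, the extremes of the latter being without WT array 3 and without WT array 4. The cause of these changes was not tested, beyond the wider or narrower sets of genes that the thresholds and minimums admit.

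With intensities as deposited, the list medians were 0.41 for B and plasma cell genes, 0.28 for T and NK cell genes, 0.38 for MHC class II, 0.28 for immediate early, 0.39 for alveolar type 1, -0.049 for smooth muscle, 0.28 for interferon, 0.22 for matrix and 0.23 for TGF-β genes. With median centring they were, in that order, 0.65, 0.52, 0.61, 0.51, 0.62, 0.19, 0.51, 0.45 and 0.46, where the median of all genes was 0.40. Quantile normalization over all 16 columns gave 0.40 for B and plasma cell genes. A minimum of 0.1 gave 0.29 for T and NK cell and 0.23 for immediate early genes. Without 1 array the medians ran from 0.37 to 0.44 (B and plasma), 0.18 to 0.23 (T and NK), 0.29 to 0.34 (MHC class II), 0.18 to 0.22 (immediate early), 0.26 to 0.35 (alveolar type 1), -0.15 to -0.12 (smooth muscle), 0.15 to 0.19 (interferon), 0.13 to 0.16 (matrix) and 0.093 to 0.13 (TGF-β). Some small lower differences turned higher under median centring. Among these, Acta2 (0.19), Col1a1 (0.19), Foxj1 (0.35) and Cd3e (0.17) had overlapping readings as reported, and Pecam1 (0.22) did not.

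No paired analysis was possible for the pools because each is 1 RNA. In the lungs, the shared replicate numbers belong to different mice. With the replicate number as a block, limma called 4080 genes higher and 2619 lower, against 5292 and 3389 without it. The lower count was 7780 with intensities as deposited. Without 1 array the lungs gave 4352 to 5186 higher and 2595 to 3604 lower.

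The 135 genes that lacked 3 readings in a pool had a median intensity of 21.7, against 1.37 for the genes compared, so the brightest transcripts are thinly covered. Xbp1 read at 48.4% to 77.6% of the highest pool intensity on its array, and Rps21 at 40.3% to 75%.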

Other observations

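Some gene families were looked at after their values were seen, and are given as values. Of 12 lectin-like receptor genes of NK cells (Klr), 9 were higher and none lower without overlap in the TGFb1-Tg pool, with a median of 0.39. Of 38 ribosomal protein genes and pseudogenes, 23 were higher and 2 lower, with a median of 0.27. Of 55 olfactory receptor genes above the intensity minimum, 13 were lower and 1 higher, with a median of -0.26. Of 10 immunoglobulin gene segments, 5 were higher and none lower, with a median of 0.19. Members of these families resemble one another, and which of them a probe reads is uncertain.

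Cell cycle genes had a median of 0.22 over 21 genes compared, with 11 higher and none lower without overlap. Heat shock and chaperone genes had a median of 0.20 over 27 genes, with 13 higher and 2 lower. Adipocyte genes had a median of -0.03 over 15 genes, with 2 higher and 4 lower. The fat hormone Adipoq averaged 0.742 in the WT pool and 0.625 in the TGFb1-Tg pool, a difference of -0.31 with overlapping readings.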
